A study of Mus musculus with 12 samples.

Results

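The genes described here are 35 genes of glycolysis and of the cellular response to low oxygen, measured in germinal centre B cells of the mouse spleen. Members were taken by gene symbol, each through the array probe set that carries that symbol alone, and where a gene had several, through that of highest average over the 12 arrays. Of the 35 genes, 32 had such a probe set and 3 (Gpi1, Gapdh and Eno1) were dropped. Of the 32, 28 passed the filter on dim genes and were tested, among 11206 genes tested in all; Hk3, Eno2, Egln3 and Pfkfb4 were too dim.

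The germinal centre forms in lymphoid follicles, where activated B cells multiply, diversify their receptors by mutation and undergo selection. SwHEL B cells, whose receptor recognises hen egg lysozyme and which carried the congenic marker CD45.1, were given to CD45.2 C57BL/6J mice, which were then immunised with HEL3x, a lysozyme mutant, coupled to sheep red blood cells. On day 10, donor germinal centre cells (IgG1+, CD38 low) were sorted by zone and by affinity (high or low). Light zone (LZ) cells were taken as bright for CD86 and dim for CXCR4, and dark zone (DZ) cells by the opposite pattern. The 4 groups, DZ_high, DZ_low, LZ_high and LZ_low, hold 3 arrays each, all from female mice; ages, the affinity gate and the number of animals behind an array are not given in the sources used here, so the p-values cover only the spread among these samples, possibly a technical one.

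Glycolysis splits glucose into pyruvate, which is either reduced to lactate and exported or taken into the mitochondrion and oxidised. Dividing lymphocytes raise glucose uptake and glycolytic flux, and the transcription factor HIF-1 drives many of the same genes when oxygen is low. HIF-1 is held down by prolyl hydroxylases that mark its alpha subunit for destruction in the presence of oxygen. Parts of the germinal centre have been described as poor in oxygen, which makes the zones a natural place to ask how these genes are set.

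HIF-1 binds a short core sequence, ACGTG or GCGTG on either strand. RefSeq promoter windows (build GRCm38.p6, 250 bases before to 50 after a gene start) were matched by symbol for 33 of the 35 genes. A core was found in 37 of their 47 windows (78.7%), against 43.8% of all 32851 windows. By gene, 29 of the 33 had a core in at least 1 window, against 46.7% of all genes. Some windows of a gene overlap, each core holds a CG, and the windows were not matched for base composition. ACGTG matches include those within the E-box CACGTG, which occurred in 6 member windows and in 7.15% of all windows. The 250 bases before the start are shown for the pair of genes that differed between the zones, Aldoc and Ckb, and for Ldha and Pgk1, textbook HIF-1 targets that did not pass the zone test. Capitals mark the cores. The windows are Aldoc chr11:78322823-78323072 (plus strand), Ckb chr12:111672339-111672588 (minus strand), Ldha chr7:46845554-46845803 (plus strand) and Pgk1 chrX:106186850-106187099 (plus strand).
Aldoc: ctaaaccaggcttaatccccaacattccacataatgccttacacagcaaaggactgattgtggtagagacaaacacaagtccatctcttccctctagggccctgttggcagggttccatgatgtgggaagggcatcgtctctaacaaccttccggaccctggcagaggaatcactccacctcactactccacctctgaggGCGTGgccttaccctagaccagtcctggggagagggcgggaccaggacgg
Ckb: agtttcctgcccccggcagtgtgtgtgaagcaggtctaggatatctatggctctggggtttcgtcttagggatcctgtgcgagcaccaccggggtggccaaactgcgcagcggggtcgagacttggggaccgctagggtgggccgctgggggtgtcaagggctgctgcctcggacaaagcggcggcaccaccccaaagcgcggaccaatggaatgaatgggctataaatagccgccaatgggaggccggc
Ldha: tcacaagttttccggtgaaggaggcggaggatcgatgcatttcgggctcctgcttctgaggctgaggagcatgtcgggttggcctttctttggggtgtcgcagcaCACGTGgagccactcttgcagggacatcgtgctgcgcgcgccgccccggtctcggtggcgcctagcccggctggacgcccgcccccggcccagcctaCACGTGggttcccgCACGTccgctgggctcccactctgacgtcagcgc
Pgk1: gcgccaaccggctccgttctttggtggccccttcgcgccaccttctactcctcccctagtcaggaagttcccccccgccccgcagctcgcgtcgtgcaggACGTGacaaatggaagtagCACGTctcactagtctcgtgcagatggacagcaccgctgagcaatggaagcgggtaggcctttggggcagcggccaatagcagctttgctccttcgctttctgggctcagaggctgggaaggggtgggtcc
The Ldha window holds 5 core matches before the start, among them both strands of a pair of E-boxes, and the Pgk1 window holds 2. The Aldoc window holds 1, at position -50 counted from the start as 0, and 2 more after the start; the window of a further Aldoc start holds 1. The Ckb window holds 0. These are matches of letters in a short window and were not tested for binding.

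The first comparison asks how the members differed between LZ and DZ cells. Aldoc and Ckb were higher in LZ cells, and no other member passed the test. Aldoc encodes aldolase C, an isoform of the enzyme that cleaves fructose 1,6-bisphosphate and best known from brain. Ckb encodes the cytosolic brain-type creatine kinase, which moves phosphate between ATP and creatine. Values are log2 expression values of the probe set, in the order of matched sets 1, 2 and 3; a matched set is the 4 arrays, 1 of each group, that share a suffix in their descriptions.

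Aldoc was 6.20, 6.97 and 7.09 in DZ_high, 6.85, 6.23 and 7.01 in DZ_low, 7.95, 7.69 and 7.66 in LZ_high, and 8.39, 8.08 and 9.06 in LZ_low. All 6 LZ arrays lay above all 6 DZ arrays, with the highest values in the low-affinity LZ cells. The difference was 1.42 ± 0.22 on the log2 scale (SE, n = 3 arrays per group; limma adjusted p = 0.0234), a 2.67-fold higher value. It was positive in all 3 matched sets at either affinity, from 0.58 to 2.05.

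Ckb was 6.43, 6.81 and 7.07 in DZ_high, 6.38, 6.36 and 6.67 in DZ_low, 7.46, 7.43 and 7.40 in LZ_high, and 7.41, 8.0 and 8.25 in LZ_low. Again the LZ and DZ arrays did not overlap, and the LZ_high arrays were nearly equal to each other. The difference was 1.04 ± 0.16 (limma adjusted p = 0.0234), a 2.05-fold higher value, with set differences from 0.33 to 1.64, all positive. All 6 matched pairs were positive for 4.54% of all tested genes, and among the members for Aldoc and Ckb. Among all tested genes limma called 0.419% in this contrast, and 0.232% as higher in LZ cells. Aldoc and Ckb had the 7th and the 18th largest difference of the 26 genes called higher. Groups of LZ above DZ arrays without overlap were found for 0.535% of all tested genes.

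**Figure D1:**
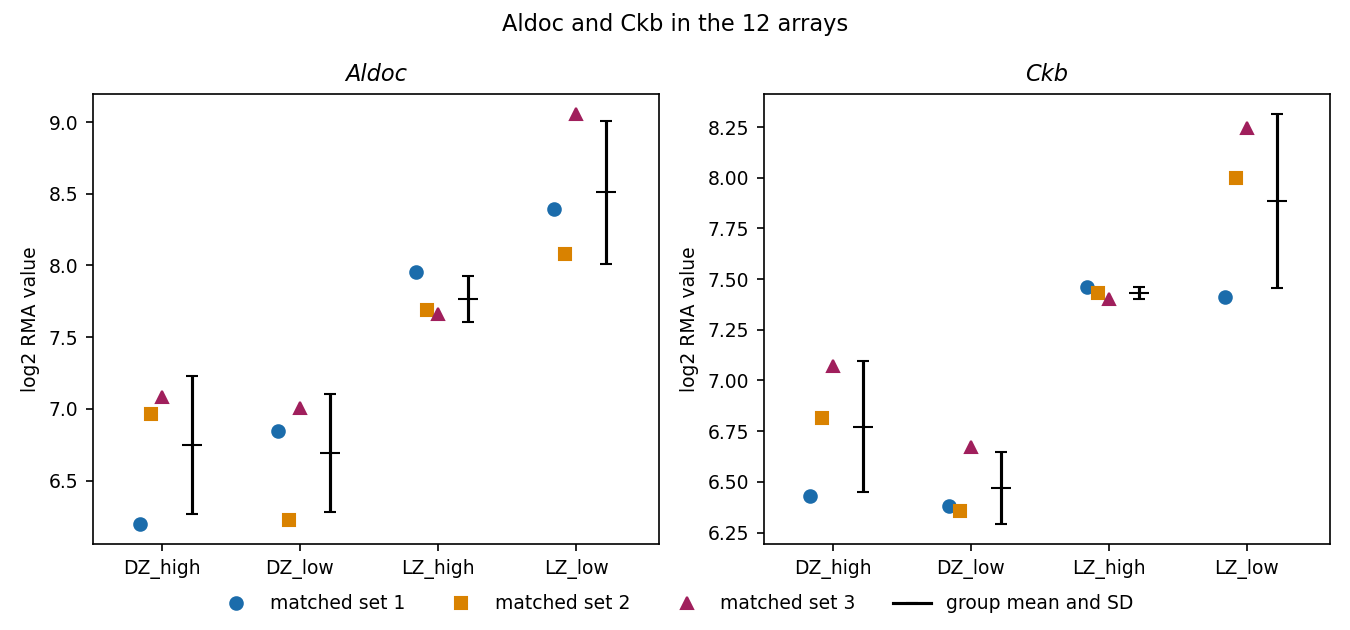
Log2 RMA values of Aldoc (left) and Ckb (right) in the 12 arrays by group; symbols mark the matched set, and the bar the group mean and SD (n = 3). All LZ values lie above all DZ values: 7.66 and higher against 7.09 and lower for Aldoc, 7.40 and higher against 7.07 and lower for Ckb.

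With 3 arrays a group both calls were close to the threshold. The Aldoc call was lost in 5 of 12 fits without 1 array (the first or second array of DZ_low or of LZ_high, or the first of LZ_low; adjusted p = 0.0541 to 0.0749), and the Ckb call in 7 (the first or second array of DZ_high, DZ_low or LZ_high, or the second of LZ_low; 0.0552 to 0.0759), while the differences stayed between 1.28 and 1.52 and between 0.95 and 1.16.

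The other 26 tested members had LZ minus DZ differences between -0.23 and 0.32. In the fit without matched set as a block, each of their 95% intervals held 0. With that block, 3 of the 28 members (Aldoc, Ckb and Eno3) had an unadjusted limma p under 0.05, as did 10.8% of all genes. Eno3 (0.32 ± 0.14) did not pass after adjustment (limma adjusted p = 0.433 with the block). The median over the 28 members was -0.02, beside 0.00 over all tested genes (-0.0038); 12 of the 28 were positive (42.9%, beside 49.0% of all genes). Over these 26 intervals, the lowest bound was -0.75 (Bnip3) and the highest 0.74 (Slc16a1).

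**Figure D2:**
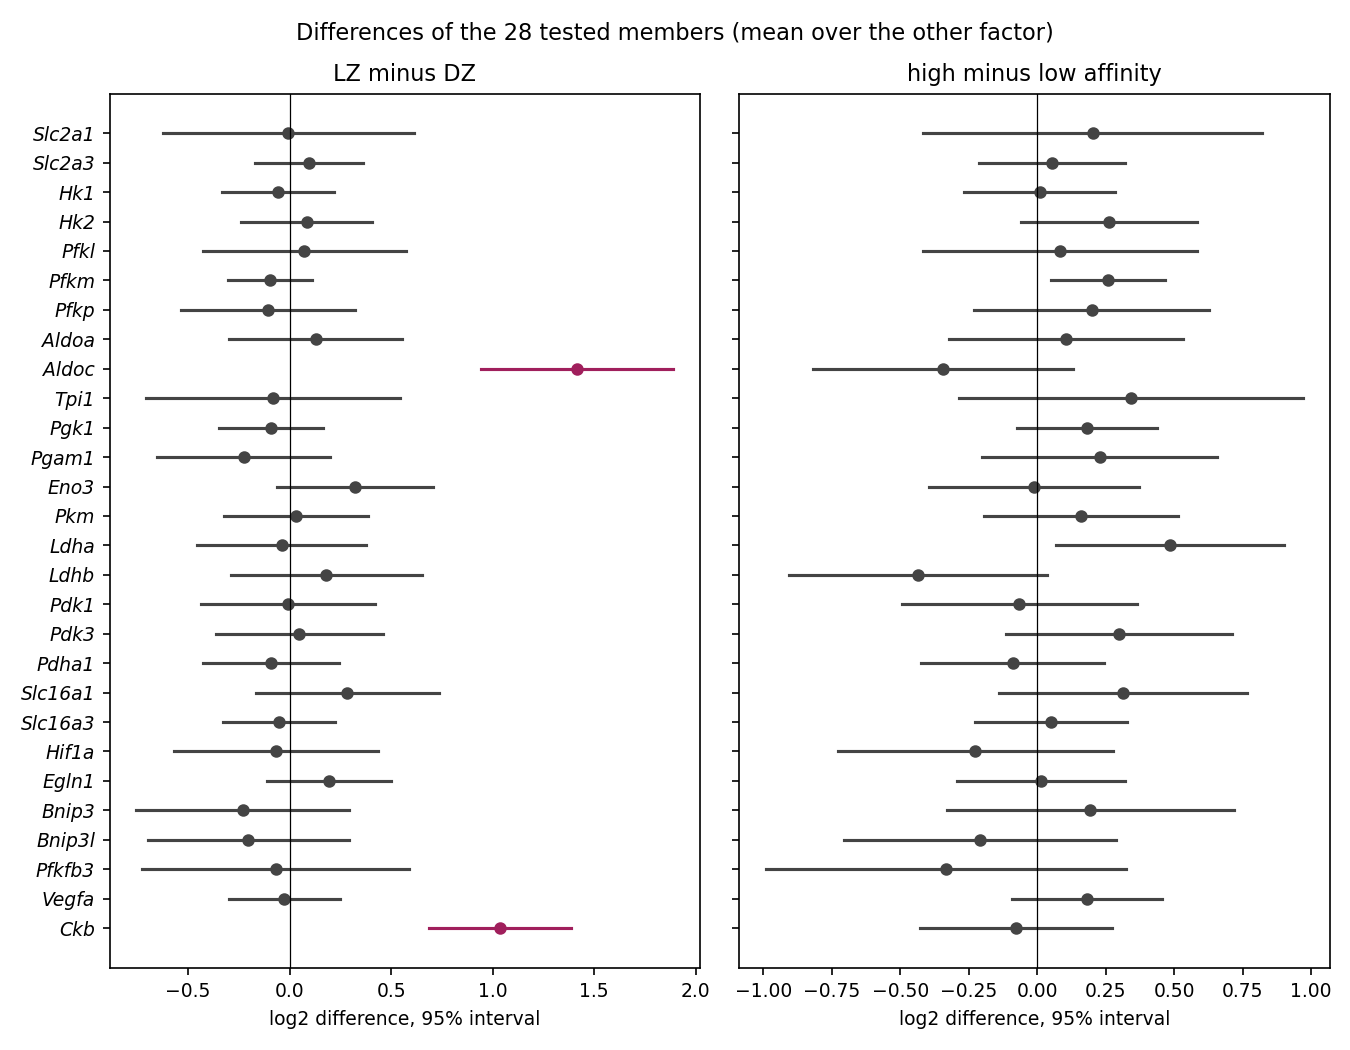
Log2 differences (points) with 95% intervals (lines) of the 28 tested members, for LZ minus DZ on the left and high minus low affinity on the right, in pathway order. The intervals are those of the fit without matched set as a block. Aldoc and Ckb, coloured, passed the adjusted threshold of 0.05 on the left. No member passed on the right, where the intervals of Pfkm and Ldha lie above 0 before adjustment. The filter was passed by Pfkm only through arrays of high affinity.

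Glucose enters through the transporters Slc2a1 (GLUT1) and Slc2a3 (GLUT3). Slc2a1 was 7.36, 7.57 and 8.31 in DZ_high, 7.85, 7.23 and 8.04 in DZ_low, 7.45, 7.39 and 8.86 in LZ_high, and 7.36, 7.34 and 7.90 in LZ_low. The groups overlapped throughout, and the array of set 3 was the highest in each group. Slc2a3 lay between 5.49 and 6.05 in all arrays.

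Hexokinases phosphorylate glucose and keep it in the cell. Hk2, the isoform induced in growing cells, was 6.22, 6.38 and 6.45 in DZ_high, 5.88, 6.18 and 6.40 in DZ_low, 6.83, 6.33 and 6.35 in LZ_high, and 6.38, 5.83 and 6.31 in LZ_low, with overlap between all groups. Hk3 stayed between 5.34 and 5.56. The Hk1 probe set taken by the rule had a mean of 12.27, but it lists 1 accession, and 16 other probe sets that carry the Hk1 symbol together with that of the ribosomal protein gene Rpl17 had means between 11.62 and 12.81. The other Hk1 probe set, with 8 accessions, had a mean of 6.28 and a zone difference of -0.08, so the level of Hk1 is uncertain.

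Phosphofructokinase commits sugar to glycolysis, and Pfkfb3 makes the fructose 2,6-bisphosphate that activates it. Pfkl ranged from 6.03 to 7.31 and Pfkp from 8.55 to 9.75, each with overlapping zones. Pfkfb3 was 7.16, 7.10 and 7.35 in DZ_high, 7.43, 6.97 and 7.65 in DZ_low, 7.57, 7.49 and 5.78 in LZ_high, and 7.75, 7.75 and 6.90 in LZ_low. The LZ_high array of set 3 was the lowest of all 12 and gave LZ_high an SD of 1.01. Pfkfb4 stayed between 4.40 and 4.94.

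Aldoa, the aldolase of most tissues, did not share the zone difference of Aldoc. It was 10.38, 10.71 and 10.98 in DZ_high, 10.60, 10.09 and 10.69 in DZ_low, 10.29, 10.63 and 11.16 in LZ_high, and 10.54, 10.45 and 11.14 in LZ_low, and its difference was 0.13 with an interval from -0.30 to 0.55. The interval of Aldoc, 0.94 to 1.89, lay above it. The difference between the 2 isoforms was not tested as such.

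In the steps after aldolase, Tpi1 (triose phosphate isomerase), Pgk1 (phosphoglycerate kinase), Pgam1 (phosphoglycerate mutase), Eno3 (an enolase) and Pkm (pyruvate kinase) all overlapped between zones. Pgk1 was 11.35, 11.61 and 11.38 in DZ_high, 11.27, 11.20 and 11.47 in DZ_low, 11.18, 11.32 and 11.71 in LZ_high, and 11.17, 11.24 and 11.11 in LZ_low, a spread of 0.60 over the 12 arrays. Pkm was 9.83, 10.00 and 10.19 in DZ_high, 9.79, 9.32 and 9.80 in DZ_low, 9.77, 9.68 and 10.02 in LZ_high, and 9.65, 9.60 and 10.38 in LZ_low. The LZ and DZ ranges overlapped for both genes.

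Pgam1 had, with Pfkm, the smallest p among members that were lower in LZ cells. It was 8.05, 8.26 and 9.01 in DZ_high, 8.05, 7.76 and 8.45 in DZ_low, 8.05, 7.84 and 8.37 in LZ_high, and 7.99, 7.69 and 8.27 in LZ_low, with a difference of -0.23 ± 0.19 (limma adjusted p = 0.999, 0.525 with the replicate block). The LZ array was below the DZ array in all 6 matched pairs of Pgam1, as for 3.74% of all genes and no other member, with differences from -0.0023 to -0.63. The value for Pfkm was -0.10 ± 0.09 (0.999, 0.821 with the replicate block). Of the enolases Eno2 stayed between 4.97 and 5.41, and Eno3 ranged from 5.47 to 6.65.

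Pyruvate is turned into lactate by lactate dehydrogenase and leaves through Slc16a1 and Slc16a3 (MCT1 and MCT4), or enters the citrate cycle through pyruvate dehydrogenase (Pdha1), which the kinases Pdk1 and Pdk3 switch off. The zone differences were -0.04 for Ldha, 0.18 for Ldhb, 0.28 for Slc16a1, -0.05 for Slc16a3, -0.09 for Pdha1, -0.01 for Pdk1 and 0.05 for Pdk3. None exceeded 1.5 times its SE in the fit without the block. With the block Slc16a1 did, with an SE of 0.16 (limma adjusted p = 0.629).

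Among the oxygen-response members, Hif1a encodes the regulated subunit of HIF-1 and Egln1 its main prolyl hydroxylase. Hif1a was 8.80, 9.22 and 8.04 in DZ_high, 9.20, 8.95 and 9.08 in DZ_low, 9.08, 9.05 and 8.23 in LZ_high, and 9.11, 9.03 and 8.39 in LZ_low. Apart from DZ_low, the lowest array of each group was that of set 3. HIF-1 is set largely by protein stability, which RNA does not show. Egln1 was 6.82, 7.58 and 6.89 in DZ_high, 7.38, 7.11 and 7.12 in DZ_low, 7.32, 7.51 and 7.40 in LZ_high, and 7.30, 7.34 and 7.18 in LZ_low, with the LZ values inside the DZ range. The HIF-1 targets Bnip3 and Bnip3l, which encode mitophagy receptors, and Vegfa, which encodes a vascular growth factor, had zone differences of -0.23, -0.20 and -0.03. Egln3, a hydroxylase gene strongly induced by HIF-1 in many cells, stayed between 4.53 and 5.08.

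Split by affinity, the same pair of genes led. In high-affinity cells Aldoc had a difference of 1.02 ± 0.31 (limma adjusted p = 0.697) and Ckb 0.66 ± 0.23 (0.775). At low affinity the values were 1.82 ± 0.31 (0.0999) and 1.42 ± 0.23 (0.0901), and with matched set as a block both passed (0.0406 for Aldoc and 0.0244 for Ckb). In high-affinity cells limma called 0.0357% of all genes (0.0357% higher and 0% lower in LZ) and 0 members. With the block it called 0.0803% (0.0535% higher and 0.0268% lower) and again 0 members. In low-affinity cells it called 0.0357% of all genes (0.0268% higher and 0.00892% lower) and 0 members, and with the block 0.223% (0.134% higher and 0.0892% lower) and 2 members.

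The interaction of zone and affinity (high minus low in LZ, less the same in DZ) was -0.80 ± 0.43 for Aldoc (unadjusted p = 0.0908) and -0.76 ± 0.32 for Ckb (unadjusted p = 0.0367), by limma. Neither passed after adjustment (adjusted p = 1 for each), so the larger zone difference at low affinity was not shown to differ from that at high affinity. Egln1 (0.24 ± 0.28) and Hif1a (0.33 ± 0.46) had the smallest p among members with a positive interaction; that of Hif1a ran from 0.0085 without the third DZ_high array to 0.61 without the third LZ_high array. Over all genes 0 (0%) passed by limma, with and without the replicate block. An unadjusted limma p under 0.05 was found for 177 of 11206 genes without the block and for 408 with it. Of the members 1 had such a p in either fit. Markers of other cells moved the same way without passing: the median interaction was -1.10 over 7 tested granulocyte markers, -0.45 over 3 of T cells and -0.32 over 4 of macrophages, and the medians of high minus low in LZ were -0.64, -0.43 and -0.38. Their part in the Aldoc and Ckb values was not tested.

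The second comparison asks how the members differed between cells of high and of low affinity. No member passed, and no gene of the 11206 did (0%), without or with the replicate block. Before adjustment limma without the block gave 588 of all genes (5.25%) and 2 of the 28 members, Pfkm and Ldha, a p under 0.05. With the block it gave 1059 genes (9.45%) and 3 members, Pfkm (0.0167), Ldha (0.00173) and Tpi1 (0.0479), such a p. Pfkm passed the filter only through arrays of high affinity. The members' median was 0.10 beside 0.00 (-0.0017) over all genes, and 19 of 28 were positive (67.9%) beside 49.6% of all genes.

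Ldha, the lactate dehydrogenase subunit that favours lactate formation, was 9.69, 10.09 and 10.49 in DZ_high, 9.55, 9.27 and 9.88 in DZ_low, 9.61, 10.12 and 10.32 in LZ_high, and 9.26, 9.52 and 9.92 in LZ_low. The groups overlapped, but within each matched set and zone the high-affinity array was above the low-affinity one, in 6 of 6 pairs (3 of 3 in each zone). The same held for Hk2, Pfkm and Pgam1, so for 4 of the 28 members, beside 2.29% of all genes. Pfkm passed the filter only through arrays of high affinity, so its place in this count is no support. The smallest pair difference of Pgam1 was 0.0057. In all 6 pairs 0 members were negative, beside 3.95% of all genes. The Ldha difference was 0.49 ± 0.19 (limma adjusted p = 0.938, 0.327 with the replicate block), with 0.45 in LZ and 0.52 in DZ.

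Pfkm, the muscle-type phosphofructokinase subunit, was 5.59, 5.71 and 5.93 in DZ_high, 5.49, 5.41 and 5.54 in DZ_low, 5.62, 5.66 and 5.63 in LZ_high, and 5.30, 5.40 and 5.45 in LZ_low. All high-affinity arrays lay above all low-affinity arrays, by a narrow margin, as for 0.134% of all genes. The difference was 0.26 ± 0.09 (limma adjusted p = 0.92, 0.438 with the replicate block). The gene is dim: only 4 arrays, all of high affinity, reached the array median that the filter uses, so it was tested through the side on which it is higher.

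Ldhb, the subunit that favours pyruvate, had a value of -0.44 ± 0.21 (limma adjusted p = 0.949, 0.575 with the replicate block) and was 4.89, 5.62 and 5.23 in DZ_high, 5.58, 5.41 and 6.18 in DZ_low, 5.46, 5.74 and 5.21 in LZ_high, and 6.49, 5.58 and 5.52 in LZ_low. Its sign was not shared by the sets: 1 of 3 was positive in each zone. The Ldhb probe set reached the array median on 4 arrays, and the other Ldhb probe set on 0, with a difference of -0.06. Aldoc had a value of -0.34 ± 0.22 (0.964).

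**Figure D3:**
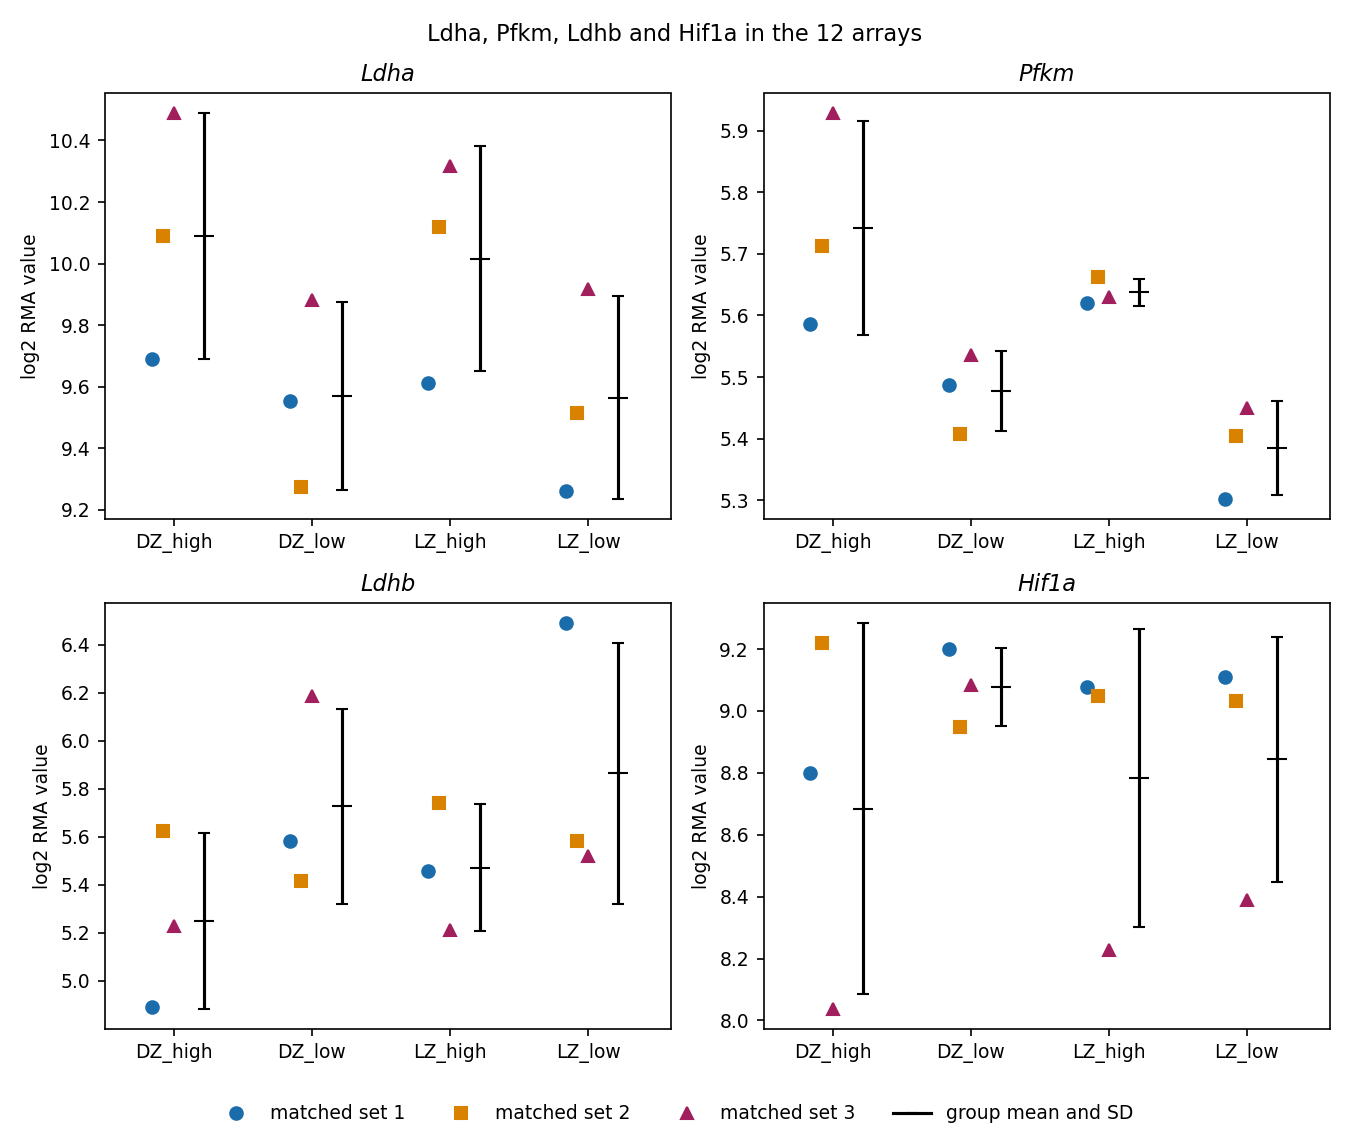
Log2 RMA values of Ldha, Pfkm, Ldhb and Hif1a in the 12 arrays by group, with the matched set as symbol and the group mean and SD (n = 3) as bar. Pfkm separates by affinity (5.59 and higher against 5.54 and lower), Ldha overlaps by group, and Hif1a has 3 low arrays of matched set 3 at 8.04, 8.23 and 8.39. The filter was passed by Pfkm only through arrays of high affinity, and by Ldhb mainly through arrays of low affinity.

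Within the LZ, the high minus low difference was -0.74 ± 0.31 for Aldoc (limma adjusted p = 0.999), whose LZ_low arrays all lay above the LZ_high arrays, and -0.46 ± 0.23 for Ckb (0.999), whose groups overlapped. Bnip3l also had its LZ_low arrays above, and Pfkm and Pdk3 below; among all genes 4.49% had the LZ_low arrays above and 4.32% below. In the DZ, the values were 0.06 for Aldoc and 0.30 for Ckb. Pfkm, Pkm and Bnip3 had all DZ_high above all DZ_low arrays, as did 3.29% of all genes, and 0 members the reverse (3.86% of all genes). Since Pfkm passed the filter only through arrays of high affinity, its place among these genes in LZ and in DZ is no support. Hif1a (-0.39 ± 0.32) and Ldhb (-0.48 ± 0.30) had the smallest p among members lower at high affinity in the DZ (limma adjusted p = 1 for each). The Hif1a value ran from -0.07 without the third DZ_high array to -0.66 without the second. That of Ldhb, which passed the filter mainly through low-affinity arrays, ran from -0.25 without the third DZ_low array to -0.67 without the second DZ_high array. In LZ the median over the members was 0.03 and in DZ 0.12, and 0 members passed in either (0% of all genes). Without the block 466 genes in LZ (1 of them a member) and 247 in DZ (0 members) had an unadjusted limma p under 0.05. With the block 891 genes in LZ (3 members) and 597 in DZ (2 members) did.

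Matched set 3 differed from the other sets for many of the tested genes, members among them, so this difference is not particular to the members. Fitted with the sets as a block, 8 of the 28 members differed between set 3 and the mean of the other sets (limma), beside 20.9% of all genes (10.5% higher and 10.4% lower). Higher in set 3 were Tpi1 (0.87 ± 0.16, adjusted p = 0.00546), Slc2a1 (0.83 ± 0.17, 0.00805), Pfkl (0.62, 0.0229), Pgam1 (0.56, 0.00897), Aldoa (0.53, 0.0227) and Ldha (0.51, 0.0156). In each of these 6 genes the array of set 3 was the highest of its group in all 4 groups. Lower were Hif1a (-0.62 ± 0.16, adjusted p = 0.024) and Pdk1 (-0.50, 0.038), the latter lowest in all 4 groups. For Aldoc and Ckb the values were 0.41 (0.189) and 0.31 (0.13). This comparison was added after the values were seen.

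**Figure D4:**
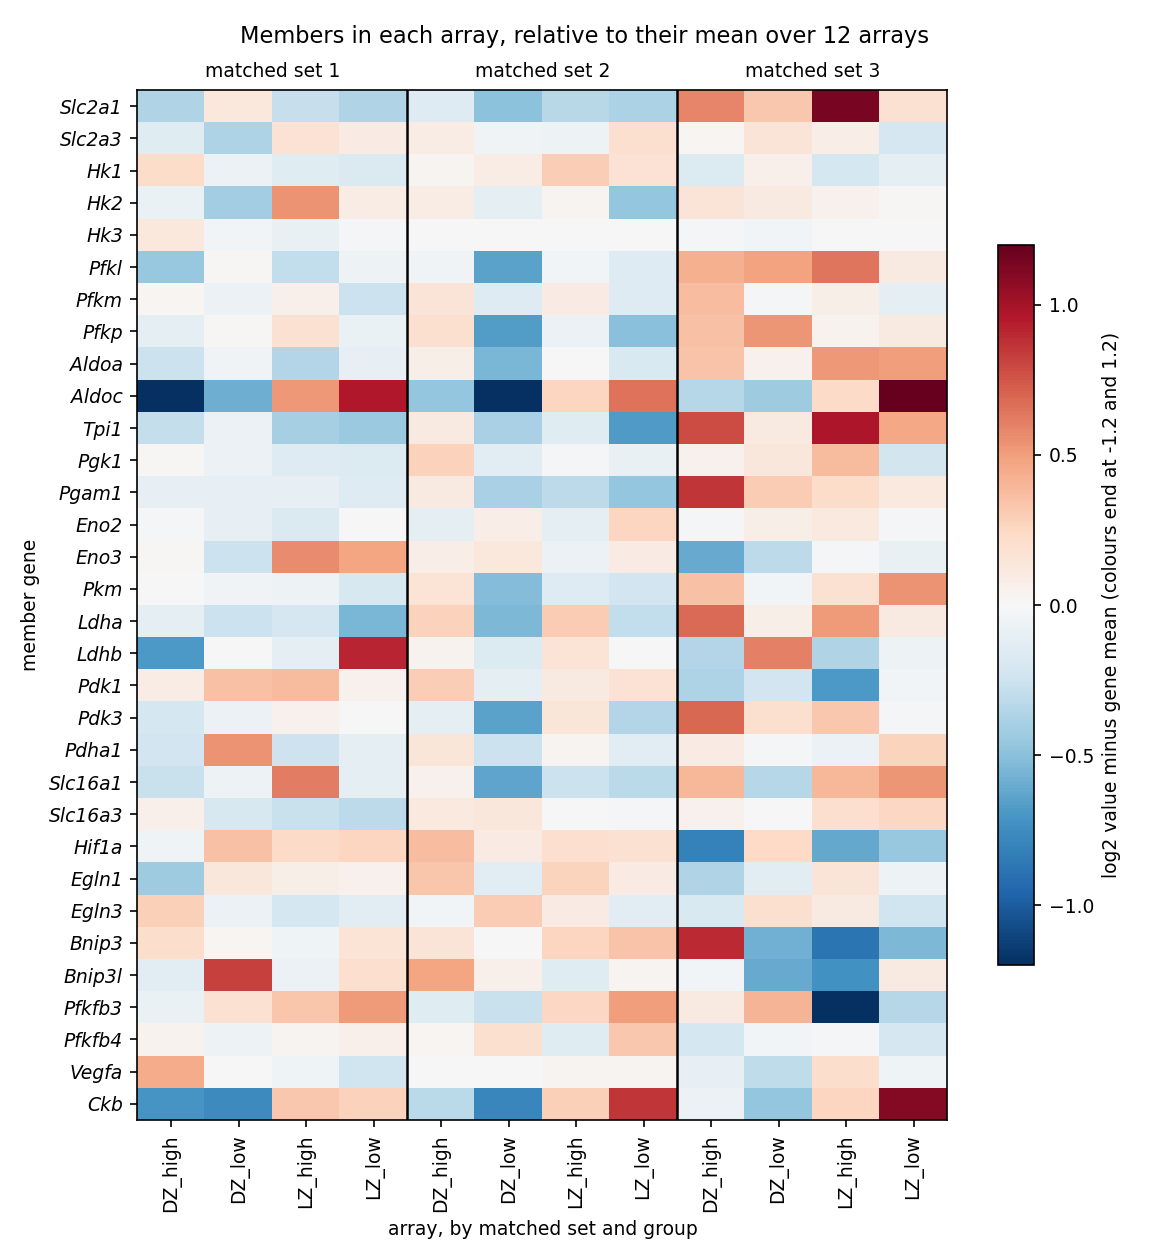
Log2 value of each of the 32 members (rows, in pathway order) in each array (columns, by matched set and group) minus the gene's mean over the 12 arrays; red is higher and blue lower. Aldoc and Ckb change with the zone in every set, whereas Slc2a1, Tpi1 and Aldoa are higher and Hif1a is mostly lower in set 3.

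Genes that flank the pathway were counted from lists of other glycolytic, mitochondrial and oxygen-response genes. In LZ minus DZ, none of the tested members of the lists for other glycolysis (12 tested), pyruvate entry (8), the citrate cycle (17), oxygen sensing (11), serine and one-carbon metabolism (8) or creatine and adenylate kinases (6) passed, without or with the replicate block. With the block only, Prps2, a phosphoribosyl pyrophosphate synthetase gene (-0.69 ± 0.14, limma adjusted p = 0.0675, 0.0396 with the block), was called lower among 9 pentose phosphate genes, Anxa2, an annexin gene (-0.71 ± 0.17, 0.136 and 0.0187), among 19 other hypoxia genes, and the kinase gene Akt1 (-0.87 ± 0.22, 0.174 and 0.0405) among 14 upstream regulators. The block called 1.2% of all genes in this contrast, 0.705% as higher and 0.5% as lower. The lists' medians were -0.28 for pentose phosphate genes (0 of 9 positive), -0.14 for the citrate cycle (1 of 17), -0.13 for oxygen sensing (1 of 11), -0.02 for other hypoxia genes (9 of 19) and 0.07 for other glycolysis (7 of 12). For high minus low affinity no list had a called gene. Positive were 8 of 8 serine and one-carbon genes (median 0.31), 13 of 17 citrate cycle genes and 7 of 9 pentose phosphate genes. So were 7 of 11 oxygen sensing, 7 of 12 other glycolysis and 4 of 6 creatine and adenylate kinase genes. The other lists had 10 of 19 (other hypoxia), 4 of 8 (pyruvate entry) and 6 of 14 (upstream regulators). Of all tested genes 49.6% were positive.

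The sort was checked with its own genes and with markers. Cd86 was higher in LZ cells by 1.13 ± 0.11 (limma adjusted p = 0.00138), Cd83 by 1.60 ± 0.14 (0.00069), and Cxcr4 had a value of -0.63 ± 0.18 (0.271, 0.0449 with the replicate block). Of the light zone markers 4 of 5 were called higher in LZ and of the dark zone markers 3 of 4 lower. Of 4 tested plasma cell markers (median -0.30, 1 positive) 1 was called, Jchain, which was lower (-0.97 ± 0.17, limma adjusted p = 0.0427). With the block only, the germinal centre marker Gcsam was called lower (-0.87 ± 0.21, limma adjusted p = 0.143, 0.0373 with the block). The B cell marker Cd22 was then called higher (0.51 ± 0.12, 0.16 and 0.0443). The mean level of 6 B cell markers lay between 10.33 and 10.81 in all arrays. Array medians lay between 5.57 and 5.72, and the 4 arrays of set 3 stood apart on the first principal component (40.1% of the variance; scores from 12.5 to 52.9 against -26.4 to -6.7). Beside the Aldoc and Ckb differences, none of the tested markers of macrophages (4 of 8 with a probe set), granulocytes (7 of 9), T cells (3 of 6), erythroid cells (4 of 6), platelets (1 of 4) or stromal cells (3 of 5) passed in LZ minus DZ, without or with the block. At low affinity the median LZ minus DZ was 0.52 for granulocyte markers (6 of 7 positive), 0.52 for macrophage markers (3 of 4) and 0.13 for T cell markers (2 of 3). At high affinity these medians were -0.29 (0 of 7), 0.04 (2 of 4) and -0.17 (0 of 3). The mean macrophage level was 5.04 to 5.38 in DZ and 4.94 to 5.78 in LZ arrays, the mean T cell level 5.08 to 5.88 in DZ and 4.86 to 6.67 in LZ arrays, and the mean granulocyte level 5.32 to 6.88 in DZ and 5.22 to 6.71 in LZ arrays; their part in the result was not tested. In sorted populations, a change in the share of cells that express a gene and a change in RNA per cell cannot be told apart.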

How the data were processed

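Amplified, biotin-labelled cDNA of 12 samples was hybridised to one-colour arrays. The deposited values are log2 expression values per probe set made by the authors with RMA (build mm8), per the submitters' processing notes; the log base was taken from their range, 1.99 to 13.74, and no version, scanner files or detection p-values were used here. Symbols came from GEO's platform annotation: of 28853 probe sets 21789 had 1 symbol, 1621 several and 5443 none. A gene was tested when at least 3 arrays reached the array's median (percentile 50) over all probe sets. Group means of all 12 arrays were fitted with limma 3.58.1 in R 4.3.3 (lmFit, eBayes, two-sided), with Benjamini-Hochberg adjustment over the 11206 tested genes in each of 7 contrasts and calls below 0.05; ± is the SE of the fit. Levels of different probe sets are not comparable with each other.

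Members and lists were chosen with earlier results of these data known. Members given array by array were those called, the 2 with the smallest p in each direction in 5 contrasts, and 8 fixed pathway genes (Slc2a1, Hk2, Pfkfb3, Aldoa, Pgk1, Pkm, Ldha and Hif1a). Matched sets come from the shared description suffix. With group means removed, 17 of 18 pairs of arrays of a set correlated above 0.1 across genes (lowest -0.0712), and the set enters as a block in an alternative fit. On simulated arrays of the LZ minus DZ comparison with 11206 genes, the fit recovered 77% of 100 genes changed by 1 and 95% of 100 changed by 2 on the log2 scale, with 11 false calls. The simulated noise was independent between arrays and had no matched sets, so these shares need not hold for the real arrays. Alternatives were a fixed or random block, other filters, quantile normalization, median centring, trend and robust eBayes, array weights, averaged probe sets per gene, only the groups compared, and leaving out each array or set 3; the block without set 3 was added after seeing the data, as were the counts of matched pairs of one sign. The number of arrays limits the precision.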

Additional observations from a re-analysis of the deposited data

How the results depend on the processing

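The LZ minus DZ count of 2 members (Aldoc and Ckb) was unchanged under the replicate block, the random block, no filter, the stricter filter (percentile 75), quantile normalization, median centring, trend and robust eBayes, array weights, averaged probe sets per gene and without matched set 3 (with or without the block), with adjusted p from 0.00164 to 0.0488 for Aldoc and from 0.00156 to 0.0467 for Ckb. Leaving out 1 array gave counts from 0 to 2. At low affinity the count of 0 rose to 2 with the replicate block, with the random block and with array weights, and stayed 0 in the other fits, with 0 in each fit without 1 array. At high affinity it was 1 with array weights and 0 otherwise. The estimate of array weights stopped before its tolerance was reached. No member was called for affinity or the interaction under any alternative. The replicate block changed no other call of a member. No named difference changed sign, though some came close to 0, as for Hif1a in the DZ and its interaction. Of the 28 members, 15 kept the sign of the LZ minus DZ difference and 17 that of the affinity difference in all 12 fits without 1 array. Over all genes the LZ minus DZ count of 47 was 135 with the block, 110 with the random block, 80 after quantile normalization, 28 after median centring, 327 with array weights, 87 without matched set 3 and 95 with the block as well, and 12 to 67 without 1 array. The cause was not tested.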

Other observations

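Gapdh, the usual reference gene of glycolysis, has no probe set of its own here. The 25 probe sets that carry its symbol together with others had means between 10.88 and 12.88 on the log2 scale, LZ minus DZ differences between -0.03 and 0.00 (-0.0283 to -0.0048), and affinity differences between -0.01 and 0.09. They were not tested.

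Where a member had further probe sets, the zone differences were -0.45 against -0.23 for Bnip3, -0.15 against -0.20 for Bnip3l, 0.07 against 0.03 for Pkm, 0.01 against 0.18 for the dim Ldhb, and -0.31 against -0.23 for 1 of 2 further sets of Pgam1. The other Pgam1 set and 1 of 2 further Pgk1 sets had the same mean and range as the set used. The second Bnip3 set ranged from 4.80 to 7.35 over the arrays, and its affinity difference was 0.57 against 0.19. Affinity differences of other further sets were -0.30 against 0.01 for Hk1, 0.37 against 0.16 for Pkm and -0.18 against -0.21 for Bnip3l. They were -0.06 against -0.44 for Ldhb, 0.34 against 0.23 for Pgam1 and 0.15 against 0.18 for Pgk1. Whether Hk1 counts as positive for affinity thus depends on the probe set.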
